A study of Mus musculus with 15 samples.

Results

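The acute phase plasma proteins described here are the products of 10 genes, Saa1, Saa2, Saa4, Apcs, Orm1, Orm2, Hp, Hpx, Lcn2 and Itih4. They were chosen by gene symbol, and 12 of the 22626 probe sets that are not array controls carried one of these symbols. Each of the 12 carried a single symbol, Saa1 and Saa4 had 2 probe sets each, and all 12 entered every test without a filter on low signal. The liver RNA came from 15 mice, labelled as males aged 3 months, with 1 Affymetrix array per mouse and 3 biological replicates in each of 5 groups. The groups titled Z4 and M4, called Z-on and M-on here, carried inducible human alpha1-antitrypsin in its mutant Z form or its wild type M form and drank no doxycycline, so that the transgene was expressed. The groups titled Z1 and M1, called Z-off and M-off, were mice of the same kinds kept non-expressing by doxycycline, given in the water they drank (40 µg per mL) from conception to death. The group titled WT consisted of littermates without the transgene and without doxycycline. Alpha1-antitrypsin is a protease inhibitor that hepatocytes secrete, and its Z form folds poorly and builds up inside the endoplasmic reticulum. Expression was confined to hepatocytes by the design, and the strain, the promoter and the number of founders are not given in the sources used here. Transgene expression and doxycycline cannot be told apart in the on-off comparisons, nor can the Z or M form and the transgenic line in the Z-M comparisons.

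The acute phase response is the change in plasma protein synthesis by the liver during inflammation or injury. IL-6 family cytokines act on hepatocytes through STAT3, and IL-1 and TNF act through NF-kB, with C/EBP factors taking part at many of the target promoters. Positive acute phase proteins such as serum amyloid A, serum amyloid P (the product of Apcs), orosomucoids and haptoglobin rise in plasma, whereas negative ones such as albumin and transthyretin fall. In mouse, serum amyloid A and serum amyloid P are the best known responders, and Crp is only a weak one.

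The promoter windows of the 3 serum amyloid A genes and of Apcs are shown because Saa1 and Saa2 had like values across the groups while Saa4 did not, and because Apcs was the member that separated the lines. Each holds the 250 bases before the annotated start of the gene, on the gene's own strand, 5′ to 3′, from RefSeq (GRCm38.p6). The table held windows for 8 of the 10 members. Capitals mark matches, on either strand, to the letters TTGCNNAA (C/EBP), to TTCNNNGAA (STAT3), or to an NF-kB pattern of GGG and, after any 5 bases, CC, and no match overlapped another in these windows. The Saa1 window is chr7:46742981-46743230 (minus strand), the Saa2 window is chr7:46751583-46751832 (plus strand), the Saa4 window is chr7:46732604-46732853 (minus strand) and the Apcs window is chr1:172895055-172895304 (minus strand).
Saa1: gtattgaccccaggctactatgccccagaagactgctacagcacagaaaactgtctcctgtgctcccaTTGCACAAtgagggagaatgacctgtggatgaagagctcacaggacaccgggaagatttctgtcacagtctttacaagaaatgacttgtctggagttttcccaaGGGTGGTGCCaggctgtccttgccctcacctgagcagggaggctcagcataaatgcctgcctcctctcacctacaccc
Saa2: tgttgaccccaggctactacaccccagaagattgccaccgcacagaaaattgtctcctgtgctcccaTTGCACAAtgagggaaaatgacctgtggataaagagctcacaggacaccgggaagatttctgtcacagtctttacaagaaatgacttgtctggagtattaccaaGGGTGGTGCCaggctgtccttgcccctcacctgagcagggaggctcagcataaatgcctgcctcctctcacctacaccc
Saa4: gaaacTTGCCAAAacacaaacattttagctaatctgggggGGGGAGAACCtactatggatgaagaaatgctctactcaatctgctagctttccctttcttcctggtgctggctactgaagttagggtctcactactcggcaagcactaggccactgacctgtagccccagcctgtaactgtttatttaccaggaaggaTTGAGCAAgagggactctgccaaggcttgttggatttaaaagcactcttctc
Apcs: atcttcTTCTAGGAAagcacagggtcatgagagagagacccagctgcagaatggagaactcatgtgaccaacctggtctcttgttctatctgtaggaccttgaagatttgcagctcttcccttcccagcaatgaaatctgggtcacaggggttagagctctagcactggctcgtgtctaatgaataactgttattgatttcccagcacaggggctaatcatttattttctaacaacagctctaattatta
Saa1 and Saa2, which are transcribed in opposite directions, shared 238 of 251 aligned columns (94.8% identity), and both had the C/EBP letters and the NF-kB letters in the same form. Saa4 shared 49.5% of aligned columns with Saa1 and 46.8% with Saa2, and held 2 C/EBP matches and 1 NF-kB match in other positions. The Apcs window held the STAT3 letters and neither of the other motifs. Among 32851 promoter windows of this length, 9.56% held the C/EBP letters, 45.8% the NF-kB letters and 7.02% the STAT3 letters, so that a match is a description and no evidence of binding. The HNF1 consensus, also searched on both strands, was present in 0.00913% of windows and in no member's window.

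The deposited values are linear signals in arbitrary units, and signals of different probe sets are not compared with each other. Tests were made with limma on log2(signal + 16), and a probe set was called at a Benjamini-Hochberg adjusted p below 0.05 over all 22626 probe sets. Log2 changes are on that scale, which understates the change of dim probe sets. Arrays M-on 1 and M-on 2 went against the male label, with Xist signals of 1149 and 226, against 13.7 to 74.3 on the other arrays. All 3 M-on arrays were low in Y-linked signal, with Eif2s3y at 0.4, 1.3 and 42.1, against 105 to 438 on the 12 other arrays, and Kdm5d at 12, 11.4 and 23.2, against 43.6 to 90.3. Array M-on 3, which had an Xist signal of 32.6, is the only array of its group left where M-on 1 and M-on 2 are omitted. Such a value sets 1 array against 3, with the spread taken from the other groups, and shows nothing about the spread within M-on livers. The poly-A spike-in controls had median signals of 2 to 5.2 on the Z-on and M-on arrays, against 33.8 to 57.9 on the other arrays. The 18S ribosomal RNA control had signals of 1830 to 2681 on the on arrays, against 75 to 568 on the other arrays. The ratio of the 3′ to the 5′ actin control was 1.29 to 1.73 on the on arrays, against 1.66 to 2.06 on the off arrays and 2.34 to 2.46 on littermate arrays. The part of these signs of RNA quality in the on-off and littermate values was not tested. Median signals over all probe sets were 43.9 to 54.9 on the on arrays, against 30.2 to 32 on the off arrays and 42.2 to 44.8 on littermate arrays. The highest signal on an array was 8019 to 12314 in the transgenic groups, against 16770 to 22995 in littermates. Array handling and transgene state cannot be told apart in the on-off comparisons, nor in those of Z-on and M-on livers with littermates. In the comparisons of off livers with littermates, the transgenic line and doxycycline cannot be told apart. The median log2 change over all probe sets was 0.21 in Z-on minus Z-off and 0.23 in M-on minus M-off, which quantile normalization brought to -0.0011 and 0.02.

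The liver identity of the samples was checked on hepatocyte markers, and all 8 measured had group means above 16 in every group. Their summed signal was 40854 to 43328 in Z-on livers, 47260 to 54834 in Z-off livers, 40228 to 47794 in M-on livers, 47204 to 51581 in M-off livers and 65327 to 74160 in littermates. In whole liver, fewer cells of a type and less RNA per cell cannot be told apart.

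**Figure D1:**
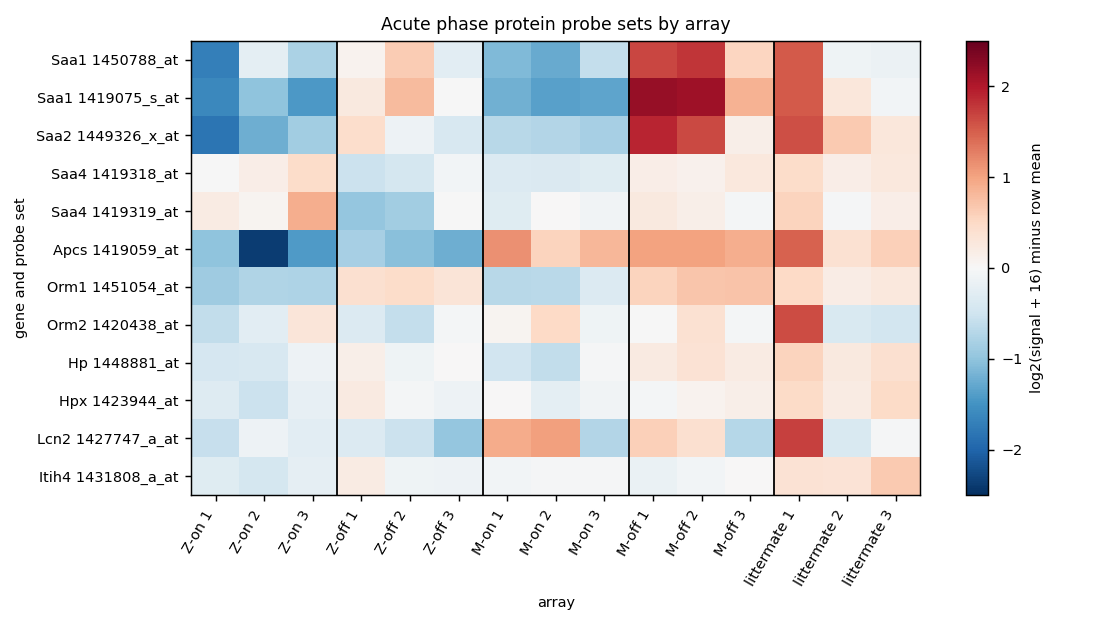
Log2(signal + 16) of the 12 acute phase protein probe sets (rows) on the 15 arrays (columns), with each row's mean subtracted; red is above and blue below the row mean, and black lines separate the groups. The Saa1 and Saa2 rows are blue on the 6 on arrays and darkest red on arrays M-off 1 and M-off 2, Apcs is blue on all 6 Z arrays, and array littermate 1 is above the row mean in all 12 rows.

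With the transgene on, Saa2, Orm1 and 1 of the 2 Saa1 probe sets fell in both lines, and the other Saa1 probe set fell in the M line. Both Saa4 probe sets rose in the Z line, and Hp and 1 Saa4 probe set fell in the M line. In Z-on against Z-off livers 2 of the 12 member probe sets were called higher and 3 lower, where 36% of all probe sets were called, 27.9% higher and 8.14% lower. In M-on against M-off livers none was called higher and 6 were called lower, where 46.5% of all probe sets were called, 33.2% higher and 13.4% lower. The interaction, the Z-line change minus the M-line change, was called for none of the 12 by limma, 3 of them having an unadjusted p below 0.05, where 0.34% of all probe sets were called. The median log2 change over the 10 genes, each read from its brightest probe set, was -0.35 in Z-on minus Z-off and -0.34 in M-on minus M-off, against 0.21 and 0.23 over all probe sets. Among the 269 probe sets with a mean signal over 3000, where Orm1, Hp, Hpx and Itih4 lie, 33.1% were called lower in Z-on minus Z-off and 37.2% in M-on minus M-off, with medians of -0.24 and -0.21.

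Saa1 and Saa2 encode the inducible serum amyloid A apolipoproteins of high density lipoprotein. Saa1 had a brighter and a dimmer probe set. The dimmer one is annotated to Saa1, but its source transcript is a Saa2 transcript in RefSeq, the same one as for the Saa2 probe set. Since the transcripts are near-identical copies, cross-hybridisation between them could not be separated here, and the 3 probe sets are given as a joint Saa1/Saa2 signal. The brighter Saa1 probe set had signals of 290.2, 259 and 419 in M-on livers, against 2085, 2256 and 944 in M-off livers. All 3 M-on arrays lay below all 3 M-off arrays, at a mean of 323 ± 84.8 against 1762 ± 713 (SD, n = 3 each). The change was 5-fold downward (log2 change -2.32, SE 0.48, adjusted p = 0.00138). Its signals were 187, 542 and 365 in Z-on livers, against 683, 1014 and 532 in Z-off livers, and the ranges overlapped. That difference was not called (log2 change -1.06, SE 0.48, adjusted p = 0.0969).

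The dimmer Saa1 probe set, the Saa2-derived one, gave larger on-off changes. Its signals were 189.8, 169.6 and 174 in M-on livers, against 2137, 2045 and 850.5 in M-off livers. In the Z line they were 140.1, 223 and 161 in Z-on livers, against 547, 804 and 459 in Z-off livers. Neither pair of groups overlapped, and array M-off 3 was well below the other M-off arrays but above every M-on array. The fall was 8.09-fold in the M line (log2 change -3.02, SE 0.40, adjusted p = 5.27e-05) and 3.22-fold in the Z line (log2 change -1.69, SE 0.40, adjusted p = 0.00465). The Saa2 probe set had signals of 84.1, 81.8 and 75.1 in M-on livers, against 587, 491 and 162 in M-off livers. Its signals in Z-on livers were 29.4, 53.2 and 72.8, against 204, 133 and 106 in Z-off livers. Again no on array reached an off array of its line, and Saa2 fell 3.94-fold in the M line (log2 change -1.98, SE 0.43, adjusted p = 0.00196) and 2.43-fold in the Z line (log2 change -1.28, SE 0.43, adjusted p = 0.0311). The Z-line call of Saa2 ended when any of arrays Z-on 1, Z-on 2, Z-off 1 or Z-off 2 was left out (adjusted p up to 0.121), and with a constant of 64 in place of 16 (adjusted p = 0.0835).

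**Figure D2:**
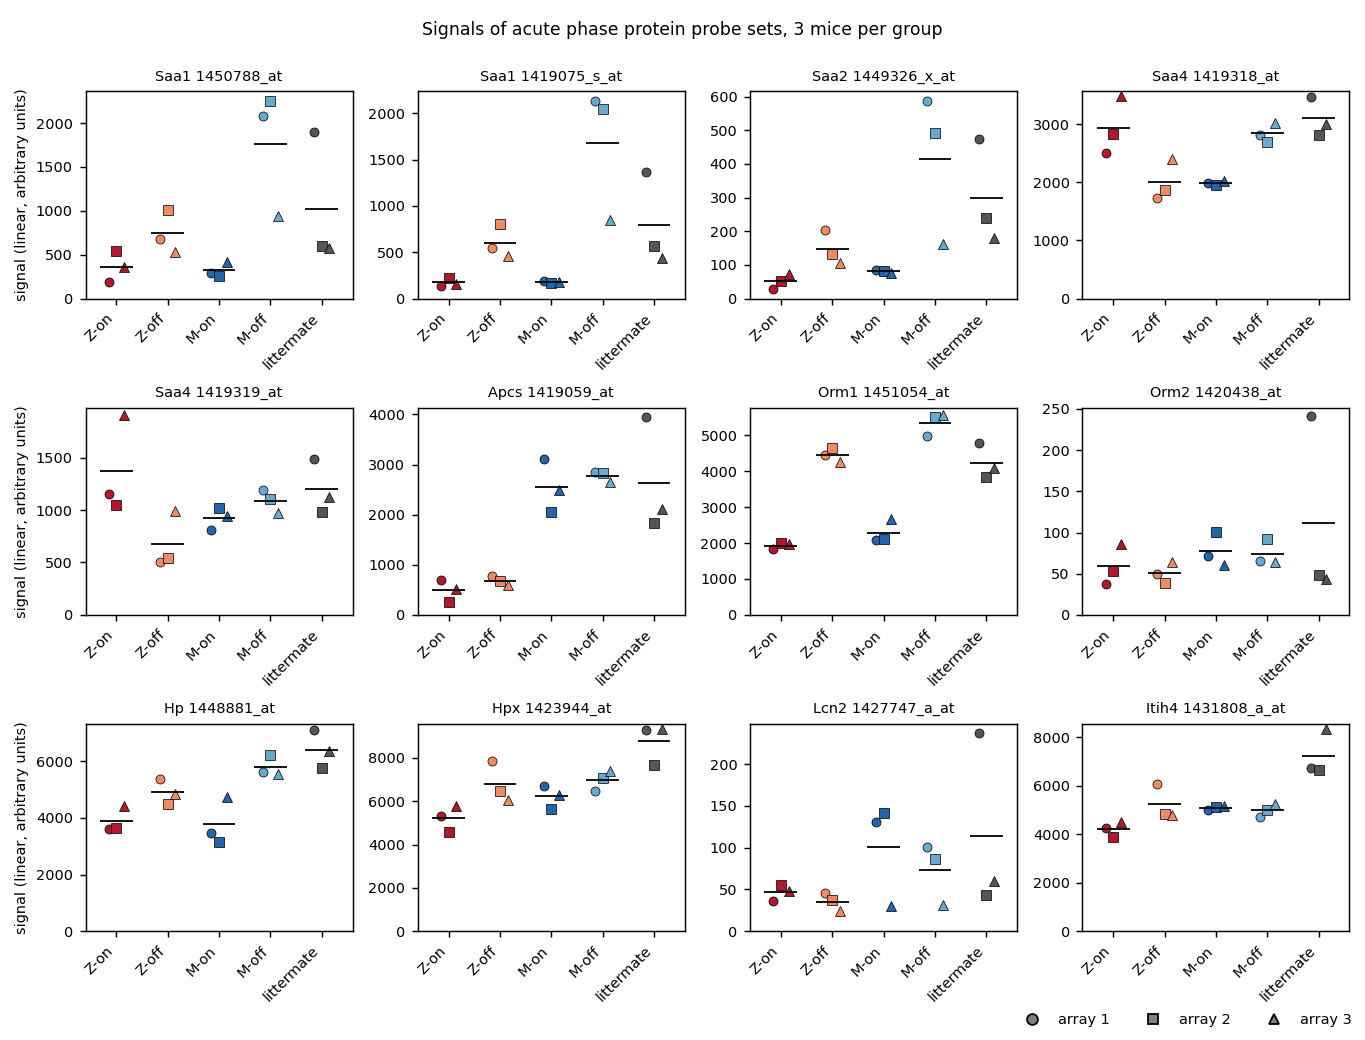
Linear signal (arbitrary units, each panel with its own axis) of each of the 12 probe sets in the 5 groups, with 1 marker per array and a line at the group mean. Both Z groups lie below the other groups for Apcs, both on groups lie below the other groups for Orm1, and the Orm2 and Lcn2 groups overlap throughout.

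Saa1 and Saa2 did not separate the Z and M forms at the threshold. The dimmer Saa1 probe set had a log2 difference of -0.05 between Z-on and M-on livers (adjusted p = 0.98) and of -1.38 between Z-off and M-off livers (adjusted p = 0.231). The interaction was 1.33 (SE 0.56, adjusted p = 0.303). Array M-off 3 was the lowest of its group and array littermate 1 the highest of its group in all 3 Saa1 and Saa2 probe sets. Socs3, a feedback inhibitor of STAT3 signalling in the receptor list, had signals of 43.9, 46.8 and 76.4 in Z-on livers, 51.3, 37.2 and 100.2 in Z-off livers, 69, 87.9 and 70.4 in M-on livers, 186, 288 and 79.3 in M-off livers and 118, 44.7 and 72.6 in littermates, and was likewise high on arrays M-off 1 and M-off 2 and lower on M-off 3. It is named after its values were seen, and its part in the Saa1 and Saa2 values was not tested. With array M-on 3 alone in its group, the log2 change in M-on minus M-off was -3.04 for the dimmer Saa1 probe set, -2.06 for Saa2 and -1.93 for the brighter Saa1 probe set, the last with an adjusted p of 0.0538 that rests on the spread of the other groups.

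Saa4 encodes the constitutive serum amyloid A of high density lipoprotein and lies next to Saa1 in the gene cluster. It was higher in Z-on livers than in Z-off livers, and its brighter probe set was lower in M-on livers than in M-off livers. The brighter Saa4 probe set had signals of 2504, 2832 and 3474 in Z-on livers, against 1737, 1861 and 2408 in Z-off livers. The M-line signals were 1981, 1948 and 2023 in M-on livers, against 2808, 2691 and 3018 in M-off livers. Neither pair overlapped, and the order of on and off was opposite in the lines. The brighter Saa4 probe set was 1.47-fold higher in Z-on livers (log2 change 0.55, SE 0.15, adjusted p = 0.0122) and 1.43-fold lower in M-on livers (log2 change -0.51, SE 0.15, adjusted p = 0.0135) than in the off livers of their lines. The interaction for Saa4 was 1.06 on the log2 scale (SE 0.21), with an adjusted p of 0.0531, just above the threshold.

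The dimmer Saa4 probe set had signals of 1152, 1049.9 and 1907 in Z-on livers, against 509, 542 and 992 in Z-off livers. Its lowest Z-on array lay above its highest Z-off array, and the rise was 2.01-fold (log2 change 1.01, SE 0.26, adjusted p = 0.00879). It had signals of 811, 1016 and 947 in M-on livers, against 1193, 1106 and 968 in M-off livers, and these overlapped (log2 change -0.23, adjusted p = 0.495). Its interaction was 1.24 (SE 0.37, adjusted p = 0.155), of the same sign as that of the brighter Saa4 probe set. The Z-line call of the brighter Saa4 probe set ended without array Z-on 3 or without array Z-off 1 (adjusted p up to 0.0631). Its M-line call ended after quantile normalization (log2 change -0.36, adjusted p = 0.0944), with array M-on 3 alone in its group (-0.48, adjusted p = 0.118) and with array M-on 1 alone (adjusted p = 0.0978), both resting on 1 array. Its interaction passed the threshold after quantile normalization (1.14, adjusted p = 0.0474). Between the lines with the transgene on, every Z-on array of the brighter Saa4 probe set lay above every M-on array, without a call (log2 change 0.55, adjusted p = 0.0565). That difference was called after quantile normalization (0.63, adjusted p = 0.0365), with a constant of 64, the 40th percentile filter, an intensity trend or array weights, and without array Z-off 3 (adjusted p = 0.0466).

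Saa3, a family member made largely outside the liver, which lies on the other side of Saa4, was not called in either on-off comparison. It had signals of 73.4, 101 and 119 in Z-on livers, against 139, 87.1 and 72.4 in Z-off livers (log2 change 0.00, adjusted p = 0.998). In the M line Saa3 had signals of 81.8, 94.5 and 93.6 in M-on livers, against 62.6, 110.1 and 44.4 in M-off livers (log2 change 0.33, adjusted p = 0.318). It belongs to the list of other acute phase genes and is named after its values were seen.

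**Figure D3:**
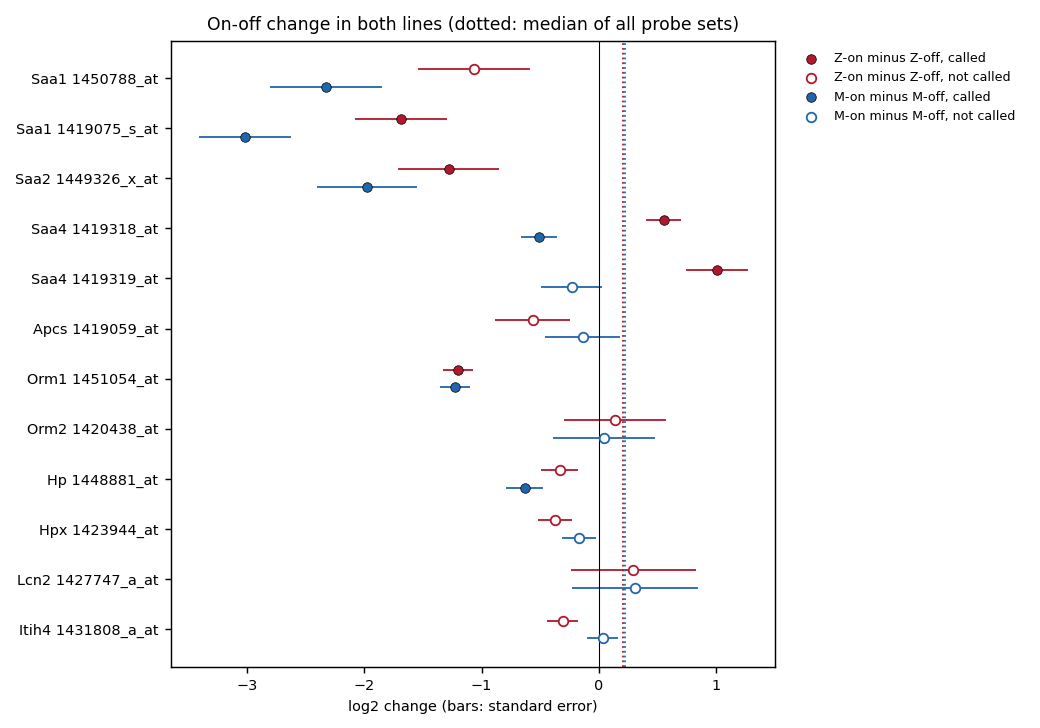
Log2 change with its standard error for the 12 probe sets in Z-on minus Z-off and M-on minus M-off (3 arrays per group); filled markers are called at adjusted p below 0.05, and dotted lines mark the medians of all probe sets, 0.21 and 0.23. Saa1, Saa2 and Orm1 lie below 0 in both lines, whereas both Saa4 probe sets lie above 0 in the Z line and below 0 in the M line.

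Apcs encodes serum amyloid P component, a pentraxin and in mouse a major acute phase reactant. It differed between the Z and M lines whether or not the transgene was on, and in the fit over all 5 groups with a constant of 16 it was the only member called in either Z-M comparison. With the transgene on, 0 of the 12 member probe sets were called higher and 1 lower in Z-on minus M-on, where 4.47% of all probe sets were called, 3.36% higher and 1.11% lower. With it off, 0 were called higher and 1 lower in Z-off minus M-off, where 0.0972% of all probe sets were called, 0.0486% higher and 0.0486% lower. Apcs had signals of 690.5, 258 and 519 in Z-on livers, against 3119, 2063 and 2501 in M-on livers. With the transgene off it had signals of 783, 669 and 594 in Z-off livers, against 2851, 2834 and 2658 in M-off livers. Its littermate signals were 3949.5, 1825 and 2116, and all 6 Z arrays lay below all 9 other arrays.

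The mean Apcs signal was 489 ± 218 in Z-on livers, 682 ± 95.1 in Z-off livers, 2561 ± 530.5 in M-on livers, 2781 ± 106 in M-off livers and 2630.3 ± 1152 in littermates (SD, n = 3 each). Apcs was 5.41-fold lower in Z-on livers than in M-on livers (log2 change -2.44, SE 0.32, adjusted p = 0.00247). It was 4.03-fold lower in Z-off livers than in M-off livers (log2 change -2.01, SE 0.32, adjusted p = 0.0325). Within a line the transgene state made no called difference, with a log2 change of -0.56 for Z-on against Z-off livers (adjusted p = 0.188) and of -0.14 for M-on against M-off livers (adjusted p = 0.753). Against littermates, Apcs was 5.32-fold lower in Z-on livers (log2 change -2.41, SE 0.32, adjusted p = 0.000567) and 3.6-fold lower in Z-off livers (log2 change -1.85, SE 0.32, adjusted p = 0.00188), while M-on and M-off livers were not called (log2 change 0.03, adjusted p = 0.967, and 0.16, adjusted p = 0.752). The Apcs call in Z-off minus M-off ended when any of 6 single arrays was left out, namely Z-off 1, Z-off 2, M-off 1, M-off 2, M-off 3 or littermate 3, with log2 changes of -2.11 to -1.92 and adjusted p of 0.0105 to 0.149 over all single omissions. When only Z-on and M-on livers were fitted, the Apcs difference kept its size (log2 change -2.44, SE 0.36), and the call ended (adjusted p = 0.12) as 15 probe sets were called in all, in place of 1012. Leaving out any single Z-on or M-on array also moved that count of 1012 by over 1.5 times, to between 107 (without M-on 2) and 3130 (without M-on 1). The 22 probe sets called in Z-off minus M-off became 9 without Z-off 2 and 83 without Z-off 3.

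Since line and form cannot be told apart, the genes around Apcs were read as well. They were taken by their order in RefSeq, the nearest 20 protein-coding genes with a probe set on either side, and 62 probe sets other than that of Apcs carried one of their symbols. In Z-off minus M-off, 2 probe sets of the stretch were called lower and none higher by limma. They were Apcs and a probe set annotated to Ifi211 and Ifi205, 20 protein-coding genes from Apcs (log2 change -1.37, adjusted p = 0.0372). Also low there, without a call, were the probe sets of Mndal (-2.54 and -1.95). A probe set shared by Mndal, Ifi211, Ifi205 and Ifi204 was at -1.04, also without a call. The other probe sets of Ifi genes in the stretch had log2 changes of -0.70 to 1.04, and none was called. With the transgene on, 3 were called lower in Z-on minus M-on, namely Apcs, Pex19 (-0.71, adjusted p = 0.036) and Fcer1a (-0.71, adjusted p = 0.0352), and 3 higher, Ifi202b (0.94), Fmn2 (1.06) and Zbtb18 (1.31). These genes are named after their values were seen.

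Crp, the other short pentraxin and the nearest neighbour of Apcs that was measured in the list of acute phase genes, was not called in either comparison of the lines. It had signals of 1975, 1909 and 2064 in Z-off livers, against 2434, 2285 and 2176 in M-off livers (log2 change -0.21, adjusted p = 0.772). With the transgene on, Crp had signals of 1185, 1660.2 and 1774 in Z-on livers, against 2349.9, 2008 and 2134 in M-on livers (log2 change -0.50, adjusted p = 0.0634). The gene with values most like those of Apcs over the 15 arrays, of 12383 genes compared, was Mndal, an interferon-inducible gene that lies 19 protein-coding genes from Apcs in the same stretch. Its mean absolute difference from Apcs, after each was centred on its own mean, was 0.493 log2 units. Mndal had signals of 4.3, 0.8 and 0.3 in Z-off livers, against 83.5, 75.7 and 103 in M-off livers, and of 22.1, 8 and 1.4 in Z-on livers, against 84.7, 11.6 and 11.6 in M-on livers. The Mndal difference was -2.54 in Z-off minus M-off (adjusted p = 0.078) and was not called. The genes of the Ifi family are close copies of each other, and cross-hybridisation among them was not tested. The next most alike genes were H2-Aa (0.633) and Hsd17b13 (0.644).

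**Figure D4:**
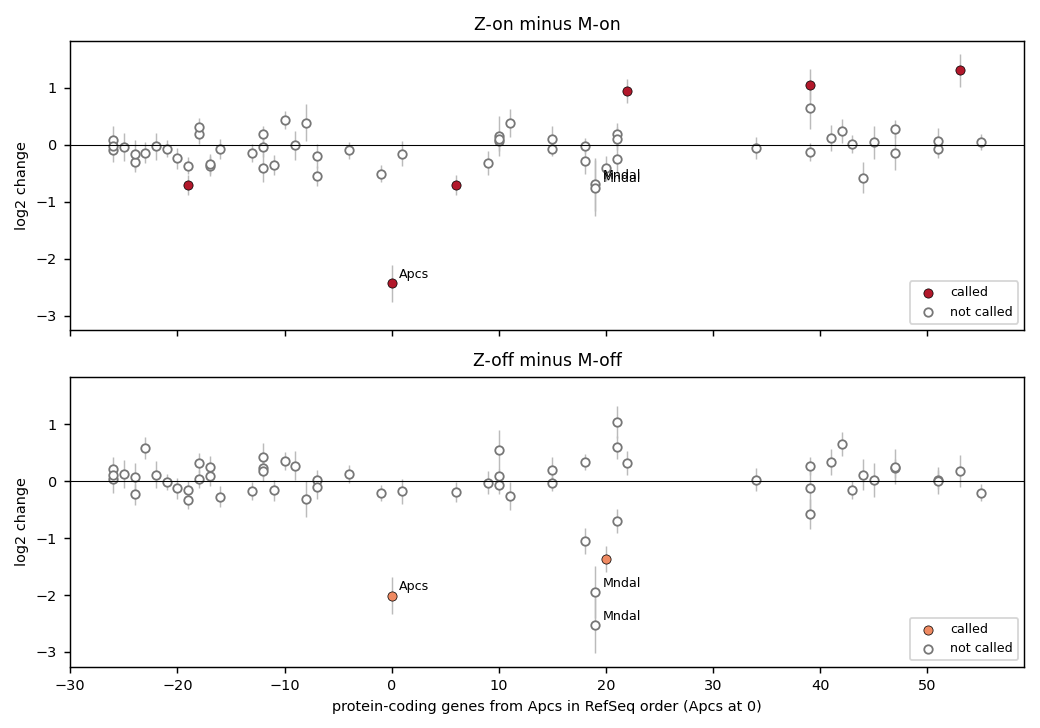
Log2 difference with its standard error for probe sets of Apcs and of the nearest 20 measured protein-coding genes on either side, in Z-on minus M-on and in Z-off minus M-off (3 arrays per group), against position in gene order. Apcs, at position 0, is at -2.44 and -2.01, and 1 of the other 62 probe sets is called lower in Z-off minus M-off; the 2 Mndal probe sets, 19 genes away, are low there without being called.

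Orm1 encodes orosomucoid 1 (alpha-1-acid glycoprotein 1), a lipocalin of plasma. It was lower with the transgene on in both lines, and no alternative setting ended either call. Orm1 had signals of 1828, 1990.2 and 1961 in Z-on livers, against 4464, 4643 and 4246 in Z-off livers. In the M line it had signals of 2092, 2117 and 2669 in M-on livers, against 4977, 5497 and 5580.3 in M-off livers. Every on array lay below every off array and every littermate array, which read 4798, 3833 and 4086. Orm1 was 2.3-fold lower in Z-on livers than in Z-off livers (log2 change -1.20, SE 0.13, adjusted p = 3.07e-05) and 2.34-fold lower in M-on livers than in M-off livers (log2 change -1.22, SE 0.13, adjusted p = 1.28e-05). The interaction was 0.02 (SE 0.18, adjusted p = 0.978), so that no difference between the lines was detected. After quantile normalization the changes were -0.99 in the Z line and -1.09 in the M line. The genes most like Orm1 over the 15 arrays were Kdelr2, Bsg and Atp5e, with mean absolute differences of 0.121, 0.132 and 0.138 log2 units.

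Orm2, the second orosomucoid gene of the cluster, was dim and not called in any comparison. It had signals of 37.7, 53 and 86.3 in Z-on livers, against 49.1, 38.6 and 64.3 in Z-off livers, and of 70.9, 101 and 60.7 in M-on livers, against 65.9, 92.1 and 64 in M-off livers. All groups overlapped, and array littermate 1 stood alone at 241, against 47.9 and 44 on the other littermate arrays. Orm3, which lies between Orm1 and Orm2 in RefSeq and is named after its values were seen, went in the opposite direction to Orm1 in the M line. It had signals of 137, 119 and 44 in M-on livers, against 2, 2.3 and 11.5 in M-off livers (log2 change 2.37, SE 0.61, adjusted p = 0.00616). In the Z line Orm3 had signals of 25.4, 9.6 and 59.3 in Z-on livers, against 4.8, 1.6 and 31.5 in Z-off livers, which overlapped (adjusted p = 0.377). The orosomucoid transcripts are similar in sequence, and cross-hybridisation among their probe sets was not tested.

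Hp and Hpx encode haptoglobin and hemopexin, the plasma proteins that bind free hemoglobin and heme. Hp had signals of 3474, 3162 and 4740.5 in M-on livers, against 5629, 6240.5 and 5558 in M-off livers. The groups did not overlap and the fall was 1.55-fold (log2 change -0.63, SE 0.16, adjusted p = 0.00498). Array M-on 3 was the highest of its group, and with it alone in the M-on group the log2 change of Hp was -0.29 (adjusted p = 0.254, a value from 1 array with the spread of the other groups). In the Z line Hp had signals of 3603, 3660.3 and 4425 in Z-on livers, against 5375, 4489.5 and 4855 in Z-off livers. Those groups did not overlap either, yet the difference was not called (log2 change -0.33, adjusted p = 0.116). Hpx had signals of 5331, 4596 and 5757 in Z-on livers, against 7840.1, 6469 and 6073 in Z-off livers, without overlap and with an adjusted p of 0.0522 (log2 change -0.37). Hpx had signals of 6719.6, 5626 and 6308 in M-on livers, against 6482, 7067 and 7413 in M-off livers, which overlapped (log2 change -0.17, adjusted p = 0.348).

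Itih4 encodes inter-alpha-trypsin inhibitor heavy chain 4, a plasma protein of hepatocytes. Itih4 had signals of 4257, 3874 and 4495 in Z-on livers, against 6076, 4856 and 4784 in Z-off livers. The Z-on arrays lay below all arrays of the other 4 groups, but the on-off difference was not called (log2 change -0.31, adjusted p = 0.0831). Itih4 had signals of 4984, 5119 and 5173 in M-on livers, against 4699, 4992 and 5271 in M-off livers, which overlapped (log2 change 0.03, adjusted p = 0.868). Itih1, a close neighbour and a negative acute phase gene in the list used here, had signals of 1059, 1039 and 1209 in Z-on livers, against 1968, 1786 and 1599.5 in Z-off livers (log2 change -0.69, SE 0.13, adjusted p = 0.00136). Itih1 was also lower in Z-on livers than in M-on livers (log2 change -0.55, SE 0.13, adjusted p = 0.0337).

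Lcn2 encodes lipocalin 2, which binds bacterial siderophores and is made by neutrophils as well as by hepatocytes. It was dim, overlapped between all groups and was not called in any comparison. Lcn2 had signals of 36.1, 55 and 48 in Z-on livers, against 45.3, 37 and 23.6 in Z-off livers, and of 130.5, 141 and 30.7 in M-on livers, against 101, 85.9 and 31.2 in M-off livers. Littermates had 237, 43.2 and 60. In each of the M-on, M-off and littermate groups 1 or 2 arrays stood well above the rest. The genes most like Lcn2 were Mmp7 (mean absolute difference 0.426), Egfbp2 (0.43) and St6galnac4 (0.433). Of 11 neutrophil markers, 8 were called higher and none lower in Z-on minus Z-off and likewise in M-on minus M-off. Over all probe sets 27.9% were called higher in the Z line and 33.2% in the M line. After quantile normalization 6 of the 11 were called higher in each line, and the shares over all probe sets, given with the cytokines below, were lower too. The summed signal of the markers was 424 to 544 in Z-on livers, 103 to 152 in Z-off livers, 488 to 501 in M-on livers, 105 to 189 in M-off livers and 343 to 433 in littermates. Group means were below 16 for 2 of these markers in Z-on livers, 7 in Z-off livers, 2 in M-on livers, 8 in M-off livers and 1 in littermates, with Camp below it in every group, and the part of these cells in the Lcn2 values was not tested.

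Against littermates the members lay lower or were not called in every transgenic group. In Z-on minus littermate 0 member probe sets were called higher and 7 lower, where 12.3% of all probe sets were called, 7.5% higher and 4.79% lower. In M-on minus littermate 0 were called higher and 8 lower, where 23% of all probe sets were called, 13.2% higher and 9.78% lower. In Z-off minus littermate 0 were called higher and 4 lower, where 21.4% of all probe sets were called, 4.52% higher and 16.9% lower. In M-off minus littermate 0 were called higher and 1 lower, where 23.3% of all probe sets were called, 4.54% higher and 18.8% lower. These 4 comparisons share the 3 littermate arrays. The dimmer Saa1 probe set was higher in M-off livers than in littermates, with overlap and without a call (log2 change 1.13, adjusted p = 0.0528). All M-off arrays lay above all littermate arrays for 1 member probe set, that of Orm1, and below them for 2. The Orm1 difference was not called (log2 change 0.34, adjusted p = 0.0734). Median log2 changes of the 10 genes against littermates were -0.77 for Z-on livers, -0.57 for M-on livers, -0.53 for Z-off livers and -0.13 for M-off livers, against 0.05, 0.05, -0.16 and -0.17 over all probe sets.

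Bright probe sets at large were often lower in these comparisons, as were the bright members. Among the 269 probe sets with a mean signal over 3000, 57.2% were called lower in Z-on and 57.2% in M-on livers against littermates, with medians of -0.51 and -0.47. Itih4 had littermate signals of 6746, 6658 and 8328, above all 12 transgenic arrays, and was called lower in all 4 groups, by -0.78 for Z-on (adjusted p = 0.00251), by -0.50 for M-on (adjusted p = 0.0154), by -0.47 for Z-off (adjusted p = 0.0227) and by -0.53 for M-off livers (adjusted p = 0.0113). Hpx had littermate signals of 9270.5, 7684 and 9322 and was called lower in Z-on livers (-0.74, adjusted p = 0.00455) and M-on livers (-0.49, adjusted p = 0.0232). Hp had littermate signals of 7119, 5759 and 6376 and was called lower in Z-on livers (-0.72, adjusted p = 0.0101) and M-on livers (-0.77, adjusted p = 0.00406). None of these Itih4, Hpx and Hp calls held after quantile normalization, where Hpx and Itih4 turned to 0.096 and 0.011 in M-on minus littermate. Leaving out 1 array ended the Hpx call in M-on livers (M-on 2, littermate 1 or littermate 3, adjusted p up to 0.0917), the Itih4 call in M-on livers (littermate 3, adjusted p = 0.0576) and the Itih4 call in Z-off livers (Z-off 2, Z-off 3 or littermate 3, adjusted p up to 0.0876). Of the 8 hepatocyte markers, 6 were called lower and none higher in each of Z-on and M-on livers against littermates, none was called in either after quantile normalization, and their part in these values was not tested.

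The calls of Saa1, Saa2, Apcs and Orm1 against littermates held after quantile normalization. In Z-on livers the Saa1 call was that of the dimmer, Saa2-derived probe set alone. Littermate signals were 1893, 595 and 581 for the brighter Saa1 probe set, 1368, 564 and 441 for the dimmer Saa1 probe set and 475, 239 and 179.6 for Saa2. The dimmer Saa1 probe set was lower in Z-on livers (log2 change -1.93, SE 0.40, adjusted p = 0.00673) and in M-on livers (log2 change -1.89, SE 0.40, adjusted p = 0.00462). Saa2 was lower in Z-on livers (log2 change -2.15, SE 0.43, adjusted p = 0.00578) and in M-on livers (log2 change -1.59, SE 0.43, adjusted p = 0.0167), and its M-on call ended without array littermate 1 (adjusted p = 0.0728). Orm1 was lower in Z-on livers (log2 change -1.13, SE 0.13, adjusted p = 0.000283) and in M-on livers (log2 change -0.88, SE 0.13, adjusted p = 0.000637). The brighter Saa1 probe set was not called in Z-on minus littermate (log2 change -1.34, SE 0.48, adjusted p = 0.0842). In M-on minus littermate it was called (log2 change -1.42, adjusted p = 0.0461). That call ended on leaving out any of 10 single arrays and with the replicate number as a block (adjusted p = 0.0585). Saa4 was lower in Z-off livers by both probe sets (-0.63, adjusted p = 0.0104, and -0.85, adjusted p = 0.034) and in M-on livers by the brighter one (-0.63, adjusted p = 0.00944), against littermate signals of 3468, 2813 and 3008 for the brighter one and 1491, 981 and 1129 for the dimmer one. The Saa4 call in M-on livers ended after quantile normalization (log2 change -0.40, adjusted p = 0.0901), and that of the dimmer Saa4 probe set in Z-off livers ended without Z-off 1, Z-off 2, littermate 1 or littermate 3 (adjusted p up to 0.135). With array M-on 3 alone in its group, 1 array against 3, the log2 change in M-on minus littermate was -1.91 for the dimmer Saa1 probe set, -1.67 for Saa2, -0.66 for Orm1 and -0.43 for Hp, and 2 members were called in place of 8. Array littermate 1 was the highest of its group in 10 of the 12 member probe sets, against 30.8% of all probe sets.

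**Figure D5:**
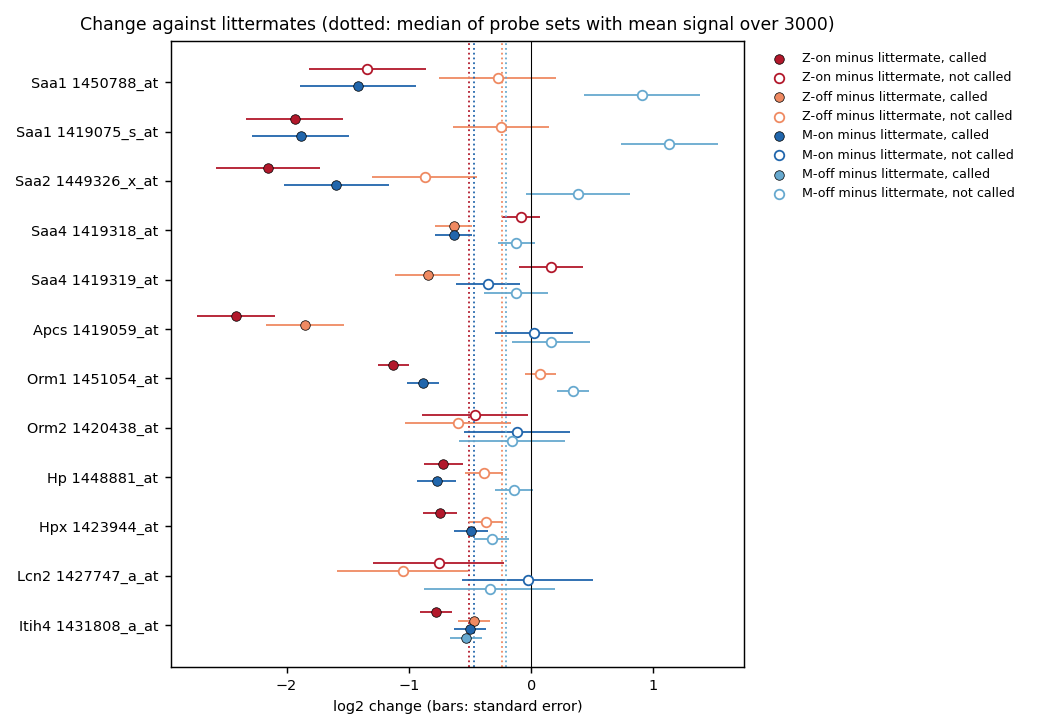
Log2 change with its standard error for the 12 probe sets in Z-on, Z-off, M-on and M-off livers minus the 3 littermates; filled markers are called at adjusted p below 0.05, and dotted lines mark the medians of the 269 probe sets with a mean signal over 3000. In Z-on livers Saa1, Saa2, Apcs and Orm1 lie farther below the dotted line at -0.51 than Hp, Hpx and Itih4 do. Saa1, Saa2 and Apcs have mean signals below 3000, so that the dotted lines are medians of brighter probe sets than theirs.

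Among themselves the members formed no single pattern. Over the 15 centred arrays the mean absolute difference was 0.308 to 0.427 log2 units among the Saa1 and Saa2 probe sets, against 0.829 to 1.2 between these and Saa4. Hpx and Itih4 were the closest pair (0.0952), followed by Hp and Hpx (0.155). Apcs was no closer than 0.771 to any other member. Outside the members, the brighter Saa1 probe set was most like Fen1 (0.458), Atp6v1h (0.491) and Prxl2c (0.494), and the dimmer was most like Slc16a1 (0.551), Tmem243 (0.575) and Sdf2l1 (0.577). Saa2 was most like Pfdn2 (0.453), Mccc2 (0.471) and Pdia4 (0.502), and the dimmer Saa4 probe set was most like Gys2 (0.149), Fgd6 (0.191) and Chn2 (0.192). These likenesses are across arrays that share their groups and their processing.

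Other positive acute phase genes were called in both directions. Of 27 measured, 7 were called higher and 5 lower in Z-on minus Z-off (median -0.16), where 27.9% of all probe sets were called higher and 8.14% lower (median 0.21). In M-on minus M-off 9 were called higher and 2 lower (median 0.26), where 33.2% of all probe sets were called higher and 13.4% lower (median 0.23). Nothing particular to the list is read from these counts. With quantile normalization 5 were higher and 2 lower in the Z line, and 10 higher and none lower in the M line. It also lowered the shares of all probe sets called higher, which are given with the cytokines below. The shares above are from before it. Il1rn, the IL-1 receptor antagonist, had signals of 145, 130.4 and 131 in Z-on livers, against 34.1, 43.8 and 44.4 in Z-off livers (log2 change 1.42, SE 0.19, adjusted p = 0.000113), and of 169, 150.4 and 118 in M-on livers, against 11.6, 17.5 and 27 in M-off livers (log2 change 2.23, SE 0.19, adjusted p = 2.95e-06). No on array of Il1rn overlapped an off array. Cd14, the lipopolysaccharide co-receptor, was higher in Z-on livers than in Z-off livers (log2 change 0.72, adjusted p = 0.00349) and in M-on than in M-off livers (1.29, adjusted p = 3.74e-05). A2m, a broad protease inhibitor, was higher by 0.92 (adjusted p = 0.00243) and 1.18 (adjusted p = 0.000274), and Cp, ceruloplasmin, was higher by 0.62 (adjusted p = 0.00583) and 0.44 (adjusted p = 0.0272). Mt2, a metallothionein, was higher in M-on livers than in M-off livers (2.75, adjusted p = 0.00583), with a log2 change of -0.18 in the Z line (adjusted p = 0.868), and its interaction was not called (adjusted p = 0.205). Mt2 had signals of 1258, 1906 and 288 in M-on livers, against 225, 120 and 57.7 in M-off livers. Array M-on 3 was well below the other M-on arrays, though above every M-off array. A2m had means of 16.2 in Z-off and 9.03 in M-off livers, near or below the constant. The on-off genes named so far from the list were those called higher. Other genes of the list, named after their values were seen, had lower means with the transgene on. Fga was at 5712 in Z-on against 9111 in Z-off livers, and at 6210 in M-on against 8782 in M-off livers. Mbl1 was at 946 against 1371, and at 1164 against 1572. Of the 27, none was called higher and 1 lower in Z-on minus M-on, the mannose-binding lectin gene Mbl2 (log2 change -0.52, SE 0.14, adjusted p = 0.0495). Over all probe sets 3.36% were called higher and 1.11% lower in that comparison.

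Of 13 negative acute phase genes measured, none was called higher and 3 lower in Z-on minus Z-off, namely Itih1, Itih2 and Serpinc1, and 2 were called higher and none lower in M-on minus M-off, namely Igf1 and Serpina6. Serpina6 had signals of 2572, 3529 and 1249 in M-on livers, against 1348, 1171 and 1405 in M-off livers. Array M-on 3 thus lay within the M-off range, and the higher arrays M-on 1 and M-on 2 went against the male label. After quantile normalization the counts were 1 higher and 1 lower in the Z line, and 3 higher and none lower in the M line. Before quantile normalization 8.14% of all probe sets were called lower in the Z line and 33.2% higher in the M line. The shares called higher after it are given with the cytokines below. Against littermates, 9 of the 13 were called lower in Z-on livers, and 6 lower and 1 higher in M-on livers. Over all probe sets 4.79% were called lower in Z-on livers, and 9.78% lower and 13.2% higher in M-on livers. Among probe sets with a mean signal over 1000, 31.4% and 33.8% were called lower, and among those over 3000, 57.2% in each. Several of the 13, such as Itih1 and F12, had means below 3000 in every group. After quantile normalization, which was added after seeing the data, 1 of the 13 was called lower in Z-on livers (Itih1, log2 change -0.47, adjusted p = 0.0467), and 1 higher and none lower in M-on livers (Igf1, log2 change 0.67, adjusted p = 0.00665).

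The receptors and signalling genes upstream of the members were also called in both directions. Of 23 measured, 9 were called higher and 2 lower in Z-on minus Z-off, beside 27.9% and 8.14% of all probe sets, and 9 higher and 4 lower in M-on minus M-off, beside 33.2% and 13.4%. Their medians were 0.27 and 0.39, against 0.21 and 0.23 over all probe sets. After quantile normalization the counts were 6 higher and 2 lower, and 7 higher and 5 lower. The shares above are from before it, and those called higher after it are given with the cytokines below. Tnfrsf1a, a TNF receptor, was higher in Z-on livers than in Z-off livers (log2 change 1.30, SE 0.18, adjusted p = 0.000167) and in M-on than in M-off livers (log2 change 1.37, SE 0.18, adjusted p = 6.25e-05). Traf6, an adaptor of IL-1 and Toll-like receptor signalling, was higher by 0.97 (adjusted p = 0.000179) and 0.87 (adjusted p = 0.00021). Il6ra, the IL-6 receptor, had signals of 163, 153 and 274 in Z-on livers, against 38.8, 36.2 and 33.6 in Z-off livers (log2 change 1.98, SE 0.29, adjusted p = 0.000194), and was higher in M-on livers by 1.59 (adjusted p = 0.000558). Osmr, the oncostatin M receptor, was higher in both lines (1.25, adjusted p = 0.00105, and 1.46, adjusted p = 0.000221). Pias3, an inhibitor of STAT3, was also higher in both lines (0.81, adjusted p = 0.00158, and 1.22, adjusted p = 5.27e-05). Osmr had means of 7.1 in Z-off and 5.1 in M-off livers, below the constant added before log2. Traf6 had means of 14.6 in Z-off and 18.3 in M-off livers, near the constant. Median signals over all probe sets were higher on the on arrays than on the off arrays, as given above. The part of this in the Osmr and Traf6 values was not tested. Between the forms, 2 were called higher and none lower in Z-on minus M-on, where 3.36% of all probe sets were called higher and 1.11% lower. The 2 genes were Il1rap, the IL-1 receptor accessory protein (log2 change 1.03, SE 0.19, adjusted p = 0.0164), and Nr3c1, the glucocorticoid receptor, which the list of transcription factors also holds (log2 change 1.38, SE 0.34, adjusted p = 0.0377). Nr3c1 had signals of 286, 274 and 326 in Z-on livers, against 252, 67.9 and 60.1 in M-on livers, where array M-on 1 stood apart from the other M-on arrays.

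Of 22 transcription factors measured, 7 were called higher and 1 lower in Z-on minus Z-off, and 3 higher and 4 lower in M-on minus M-off. Over all probe sets 27.9% were called higher and 8.14% lower in the Z line, and 33.2% higher and 13.4% lower in the M line. With quantile normalization the counts were 6 higher and 3 lower, and 3 higher and 6 lower. The shares above are from before it, and those called higher after it are given with the cytokines below. In Z-on minus M-on 3 of the 22 were called higher and none lower, where 3.36% of all probe sets were called higher and 1.11% lower. Nfkbia, the NF-kB inhibitor and itself an NF-kB target, was higher in Z-on livers than in Z-off livers (log2 change 0.79, SE 0.12, adjusted p = 0.000307) and in M-on than in M-off livers (log2 change 0.92, SE 0.12, adjusted p = 5.83e-05). Cebpd, a C/EBP factor induced in the acute phase, had signals of 125, 82.8 and 100 in Z-on livers, against 53.6, 33.2 and 41.6 in Z-off livers (log2 change 1.01, SE 0.21, adjusted p = 0.00215). Its M-on signals were 38.2, 59.3 and 36.8, below all Z-on arrays, and it was higher in Z-on livers than in M-on livers (log2 change 0.97, SE 0.21, adjusted p = 0.0255). Onecut1 and Jun were higher in the Z line (1.37 and 0.69, adjusted p = 0.0119 and 0.0185), with log2 changes of 0.53 and 0.42 in the M line that were not called. In the M line Nfkbiz (-1.32, adjusted p = 0.00133) and Nr3c1 (-1.47, adjusted p = 0.00309) were lower, with log2 changes of -0.40 and -0.27 in the Z line that were not called. Cebpa was higher in both lines (0.44, adjusted p = 0.031, and 0.66, adjusted p = 0.00232). The interaction was called for none of the 22 by limma (8 at an unadjusted p below 0.05).

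Of 14 cytokines measured, 9 were called higher and none lower in Z-on minus Z-off, and 11 higher and none lower in M-on minus M-off, where 27.9% and 33.2% of all probe sets were called higher. With quantile normalization 3 and 5 of the 14 were called higher, beside 13.2% and 19.5% of all probe sets. Their signals were low, and 5 had group means below 16 in Z-on livers, against 8 in Z-off livers, and 4 in M-on livers, against 10 in M-off livers. Il1b had signals of 55.1, 54.4 and 63.1 in Z-on livers, against 21.1, 16.7 and 20 in Z-off livers (log2 change 1.06, SE 0.16, adjusted p = 0.000291), and of 70.2, 85.3 and 60.7 in M-on livers, against 27.6, 25.9 and 12.6 in M-off livers (log2 change 1.23, SE 0.16, adjusted p = 5.88e-05). Ctf1, cardiotrophin 1 of the IL-6 family, was higher by 0.86 (adjusted p = 0.000581) and 0.98 (adjusted p = 0.000131). Il10, Hgf and Il17a were higher in both lines, with log2 changes of 0.94, 0.90 and 0.99 for the Z line, beside 0.93, 0.93 and 1.70 for the M line. Tgfb1 was higher in M-on than in M-off livers (1.10, adjusted p = 0.000724), with a log2 change of 0.35 in the Z line (adjusted p = 0.211). The interaction was called for none of the 14 by limma (2 at an unadjusted p below 0.05). Beside these counts, of 11 Kupffer cell and macrophage markers none was called higher and 2 lower in Z-on minus Z-off, 5 higher and none lower in M-on minus M-off, and none higher and 4 lower in Z-on minus M-on. Over all probe sets 8.14% were called lower in the Z line and 13.4% in the M line. In Z-on minus M-on 3.36% of all probe sets were called higher and 1.11% lower. With quantile normalization 4 of the markers were higher and 1 lower in the M line, and 6 were lower in Z-on minus M-on. The summed signal of the 11 markers was 1452 to 1873 in Z-on livers, 1511 to 2498 in Z-off livers, 3166 to 3703 in M-on livers, 1993 to 2058 in M-off livers and 2326 to 3728 in littermates, and its part in the member values was not tested.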

How the data were processed

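Liver RNA from 15 mice, 3 in each of 5 groups, was measured on 1 Affymetrix array each, and samples were grouped by the labels. The deposited values are intensity on a linear scale, from 0 to 22995, in 22690 probe sets. The submitters' processing notes name RMA, and its version and settings are not given in the sources used here. Every sample column was used (0 unused). After removal of 64 control probe sets, 22626 were fitted in limma 3.58.1 (R 4.3.3) on log2(signal + 16), with a mean per group over all 5 groups (10 residual degrees of freedom) and 9 contrasts. The constant was taken from earlier processing of these data, and 6377 probe sets had a mean signal below it. Benjamini-Hochberg adjustment ran over all probe sets. An exact two-sided permutation test of 3 against 3 cannot go below p = 0.1, so that no single-value test was used. With 3 arrays per group, precision is limited by the number of arrays.

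Gene symbols came from the platform annotation, with 20380 probe sets of 1 gene, 691 of several and 1555 of none. In gene lists each gene was read from its brightest single-gene probe set. All member probe sets are described; up to 4 called genes with the smallest adjusted p are named per list and comparison; the 3 most alike genes are named for members whose group means span over 1 log2 unit. The members and lists were chosen with earlier results of these data known. Promoter windows were searched with Python 3.11.15 and aligned with Biopython 1.88; the build behind the array annotation was not used for coordinates. On simulated data for Z-on minus Z-off over 22626 probe sets, 100 were changed by 1 log2 unit and 100 by 2. Of these, 63% and 96% were recovered, and 0.0357% of the 22426 unchanged probe sets were called. In the deposited data 36% of probe sets were called in that comparison, so that these rates need not hold there. Alternatives changed the constant, the normalization, the filter, the probe sets per gene, the groups fitted, the spread, array weights, a replicate block and the arrays left out; quantile normalization of the gene lists was added after seeing the data.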

Additional observations from a re-analysis of the deposited data

How the results depend on the processing

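Of the 12 member probe sets, the number called in Z-on minus Z-off was 3 to 6 when single arrays were left out, that in M-on minus M-off was 6 throughout, the interaction gave 0 to 1, Z-on minus M-on 1 to 2, Z-on minus littermate 7 throughout, M-on minus littermate 5 to 8, Z-off minus M-off 0 to 1, Z-off minus littermate 2 to 4 and M-off minus littermate 1 to 4. The interaction had 1 call, that of Saa4, in place of 0 with a constant of 64, quantile normalization, the 40th percentile filter, 1 probe set per gene, an intensity trend, array weights, or without arrays M-on 1 and 2. Z-on minus M-on had 2 calls in place of 1 with a constant of 64, quantile normalization, the filter, the trend or array weights, and 0 with only the groups compared. M-off minus littermate had 2 calls in place of 1 with a constant of 64, the filter, the replicate block, or without 2 of the M-on arrays (1 and 2, or 2 and 3), and 3 with the trend or array weights. Z-on minus littermate had 4 calls in place of 7 after quantile normalization. M-on minus littermate had 4 calls in place of 8 after quantile normalization and with only the groups compared, and 2 without arrays M-on 1 and 2 or without arrays M-on 2 and 3. Z-off minus littermate had 2 in place of 4 with only the groups compared, and M-on minus M-off had 3 in place of 6 without arrays M-on 1 and 2. Hpx and Itih4 turned to 0.096 and 0.011 in M-on minus littermate after quantile normalization. The replicate numbers did not pair the samples (same-number correlations of -0.197 to 0.0627 over 30 pairs), and as a block they changed 2 member calls, ending that of the brighter Saa1 probe set in M-on minus littermate (adjusted p = 0.0585) and adding that of the dimmer Saa1 probe set in M-off minus littermate (0.0355). The cause of these changes was not tested.

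Over all probe sets, interaction calls were 77, against 13 with a constant of 1, 187 with 64, 190 with the filter, 30 with only the groups compared, 125 with the trend, 1966 with array weights, 26 with the block and 1438 without arrays M-on 1 and 2. Z-on minus M-on had 1012, against 219 with a constant of 1, 15 with only the groups compared, 3340 with array weights, 2325 without arrays M-on 1 and 2 and 100 without arrays M-on 2 and 3. Z-off minus M-off had 22, against 51 with a constant of 1, 36 with 64, 41 with the filter, 43 with only the groups compared, 42 with the trend, 284 with array weights, and 49 without either pair of M-on arrays. Leaving out single arrays gave 10 to 1829 interaction calls (10 without M-off 2, 1829 without M-on 1), and moved that count by over 1.5 times for every array but Z-off 3 and littermate 1. It gave 107 to 3130 calls in Z-on minus M-on, moved that far by each Z-on and M-on array, and 9 to 83 in Z-off minus M-off, moved that far by Z-off 1, Z-off 2, Z-off 3, M-on 3, M-off 1, M-off 3 and littermate 1. It also gave 1827 and 1740 calls in Z-on minus littermate (without Z-on 2 or Z-on 3), 3383 in M-on minus littermate (without M-on 2) and 3209 in Z-off minus littermate (without Z-off 1). Settings without 2 M-on arrays leave 1 array in that group, assumed to vary like the other groups. Z-on minus littermate had 2782, against 1694 with a constant of 1. M-on minus littermate had 5207, against 1671 with only the groups compared and 2244 without arrays M-on 2 and 3. Z-off and M-off minus littermate had 4843 and 5283, against 2877 and 2982 after quantile normalization. With 1 probe set per gene (12393 tested) the 9 counts were 4876 for Z-on minus Z-off, 6263 for M-on minus M-off, 76 for the interaction, 640 for Z-on minus M-on, 1524 for Z-on minus littermate, 2987 for M-on minus littermate, 16 for Z-off minus M-off, 3019 for Z-off minus littermate and 3274 for M-off minus littermate. Quantile normalization moved the share of higher calls to 51.2%, against 77.4%, in Z-on minus Z-off, to 51.9%, against 71.3%, in M-on minus M-off, to 50.7%, against 61%, in Z-on minus littermate, to 48.9%, against 21.1%, in Z-off minus littermate and to 47.7%, against 19.4%, in M-off minus littermate, and a constant of 64 moved it to 65%, against 75.1%, in Z-on minus M-on. Orm2, Lcn2 and the cytokines lie near the constant, where signal over background limits what can be seen.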
